A study of Sus scrofa with 5 samples.

Results

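Among the fibroblasts of pig skin grafts, one set of cells carried RNA of MMP13, IL11, PRSS35 or TUBB3. A cell belonged to the set when it held at least 500 genes, when COL1A1, COL1A2 and COL3A1 together made up at least 2% of its unique molecular identifiers (UMIs, counts of single RNA molecules), when RGS5, VWF and PTPRC together had at most 2 UMIs, and when at least 2 of MMP13, IL11, PRSS35 and TUBB3 had 2 or more UMIs each. The collagen and exclusion limits define the fibroblast gate, and 6111 of 32554 barcodes passed it. Of these fibroblasts, 710 met the rule on the 4 marker genes and are called marker-positive fibroblasts here, and the other 5401 are called the other fibroblasts. The set was chosen by these very levels, so every contrast between the marker-positive and the other fibroblasts is a description and has no test.

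Single-cell RNA was measured in 5 libraries, 1 per group, after enzymatic digestion of freshly collected pig skin and capture with 10x Genomics Single Cell 3' chemistry. The groups were a split-thickness skin graft (a thin sheet of epidermis and upper dermis) on a full-thickness wound, left untreated or kept under a hydrogel with a focal adhesion kinase inhibitor (FAKI), each collected on day 7 or day 90, and unwounded skin without treatment. Dressings were changed every other day. All grafts lay on full-thickness wounds, and the number of animals behind a library, their strain, age and sex, and the inhibitor's identity and dose are not given in the sources used here. With 1 library per group no spread between replicates exists and no p-value is given, and the exact 95% intervals cover counting error only.

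MMP13 (collagenase 3) cuts fibrillar collagen, and MMP3 (stromelysin 1) degrades other matrix proteins and can activate further metalloproteinases. IL11 is a cytokine of the IL6 family that signals through gp130, the product of IL6ST, and fibroblasts release it after stimulation by TGF-beta. Focal adhesion kinase transmits signals from integrins, the receptors by which fibroblasts hold on to and pull on the matrix. TUBB3 encodes a beta-tubulin best known from neurons, PRSS35 a protein of the serine protease family, and SERPINE2 an inhibitor of serine proteases.

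The libraries held between 18485301 and 79671374 UMIs. Across them, 320 barcodes occurred in more than 1 library, 152 of them in both the inhibitor graft at day 90 and unwounded skin, and no barcode was marker-positive in more than 1 library. Leaving out shared barcodes gave shares of marker-positive cells of 10.7% and 21.1% at day 7 and 11.3% and 0.764% at day 90, in each pair the untreated graft first. Marker-positive cells were deeper than the other fibroblasts, with median UMIs of 19602.5 against 10560 in the untreated graft and 20209 against 11110 in the inhibitor graft at day 7, and 27823 against 16272 in the untreated graft at day 90.

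The share of marker-positive cells among gated fibroblasts differed between the 5 libraries. In the untreated graft at day 7, 148 of 1386 fibroblasts were marker-positive, a share of 10.7% (95% Clopper-Pearson interval 9.10 to 12.4). The inhibitor graft at day 7 held 309 of 1472, or 21.0% (18.9 to 23.2). The day 7 share was thus 1.97 times as large under the inhibitor (95% interval 1.61 to 2.41, counting error only), with 1 library on either side.

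At day 90 the order of the grafts was the opposite. The untreated graft held 246 of 2185 fibroblasts in the set, or 11.3% (9.96 to 12.7), a ratio to its day 7 value of 1.05 (0.856 to 1.30). That ratio depended on the rule and on depth, since it was 2.14 (1.61 to 2.86) without TUBB3 in the rule, whereas the day 90 share was the lower in each of 4 depth classes. In the inhibitor graft 7 of 811 were marker-positive, or 0.863% (0.348 to 1.77), a ratio to the untreated graft of that day of 0.0767 (0.0305 to 0.160). Unwounded skin had 0 of 257, which allows a share of up to 1.17% when 3 cells are taken as the limit of a count of 0, and 1.43% by the Clopper-Pearson bound.

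Because the rule asks for 2 UMIs of a gene, deeper cells meet it more often. Among fibroblasts with 10000 to 20000 UMIs, 8.49% (6.37 to 11.0) were marker-positive in the untreated graft and 19.2% (16.3 to 22.4) in the inhibitor graft at day 7, and 5.74% (4.28 to 7.52) and 0 of 288 at day 90. From 20000 UMIs upward the shares were 35.8% and 56.6% at day 7 and 21.8% and 2.38% at day 90, in the same order. With every cell thinned to 3000 UMIs the shares fell to 2.58%, 6.82%, 3.51% and 0 of 771 cells, and the inhibitor to untreated ratio at day 7 was 2.64 (1.74 to 4.12). Between 5000 and 10000 UMIs the day 7 grafts held 5.31% (3.18 to 8.26) and 6.06% (3.504 to 9.66), and under 5000 UMIs the order was the opposite, with 3.11% (1.35 to 6.04) and 2.66% (1.08 to 5.41). At day 7 the inhibitor graft thus stood higher in thinned cells, in all cells and from 5000 UMIs upward, with overlapping intervals in the class from 5000 to 10000.

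**Figure D1:**
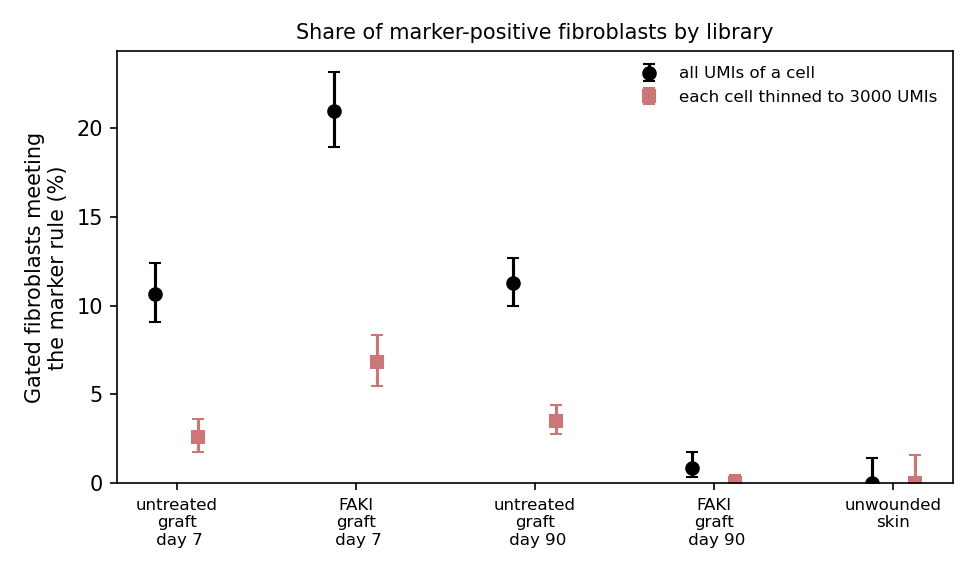
Share of gated fibroblasts that were marker-positive (vertical axis, percent) in each of the 5 libraries, for all UMIs and after thinning each cell to 3000 UMIs, with exact 95% intervals as bars. The inhibitor graft stands highest at day 7 (21.0% against 10.7%) and near 0 at day 90 (0.863% against 11.3%).

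Scrublet, which scores how far a barcode looks like 2 merged cells, placed 2.03%, 4.21% and 1.63% of the marker-positive cells among its top-scoring barcodes in the 3 libraries with 20 or more such cells, which are given here and below in the order untreated day 7, inhibitor day 7 and untreated day 90. Among their other fibroblasts the shares were 5.74%, 9.89% and 2.68%.

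The name of the set by IL11 and MMP13 held only in part. PRSS35 was the most common of the 4 marker genes, with 2 or more UMIs in 94.6%, 90.9% and 95.1% of the marker-positive cells of these 3 libraries. IL11 reached this level in 43.2%, 70.6% and 69.9%, and TUBB3 in 83.1%, 69.9% and 30.1%. MMP13 reached it in 11 of 148 cells (7.43%), 31 of 309 (10.0%) and 116 of 246 (47.2%), so an MMP13 UMI was detected in 10.1% and 13.6% of the marker-positive cells at day 7 and in 51.2% at day 90. None of the 7 cells of the inhibitor graft at day 90 held an MMP13 UMI.

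The leading combination of markers also differed between libraries. PRSS35 with TUBB3 led in the untreated graft at day 7 (76 cells, 51.4% of the set). In the inhibitor graft at day 7 it was IL11, PRSS35 and TUBB3 together (105 cells, 34.0%). At day 90 the untreated graft was led by IL11 with PRSS35 (81 cells, 32.9%), followed by MMP13 with PRSS35 (41 cells) and MMP13, IL11 and PRSS35 (39 cells). The 7 cells of the inhibitor graft at day 90 comprised 5 with IL11 and PRSS35 and 2 with PRSS35 and TUBB3.

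**Figure D2:**
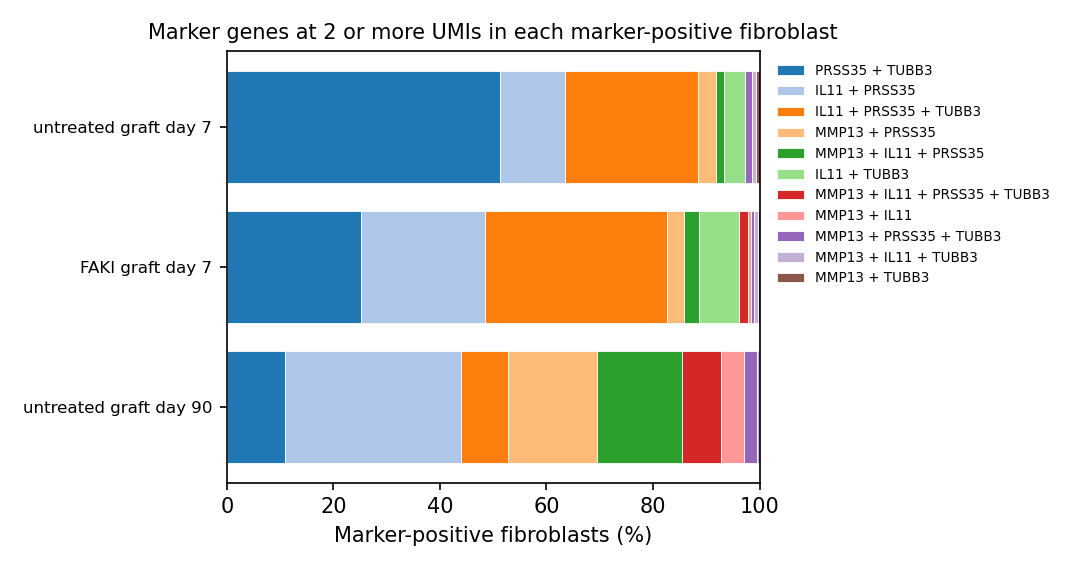
Stacked bars of the marker combinations (MMP13, IL11, PRSS35 and TUBB3 at 2 or more UMIs each) as a percentage of the marker-positive fibroblasts in the 3 libraries with 20 or more of them. PRSS35 with TUBB3 is the widest class of the untreated graft at day 7 (51.4%), and combinations with MMP13 take up 47.2% of the set in the untreated graft at day 90.

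Just outside the rule stood 326, 390 and 1100 fibroblasts with exactly 1 of the 4 genes at 2 UMIs, in the order above. Levels are given as CPM, the UMIs of a gene per 1000000 UMIs summed over a set of cells. SERPINE2 stood at 20.7 CPM in those with 1 gene and 52.8 in those with 2 in the untreated graft at day 7, at 167 and 512 in the inhibitor graft, and at 36.8 and 124 at day 90. MMP3 stood at 35.4 CPM with 1 gene, 943 with 2, 2748 with 3 and 5015 with 4 in the untreated graft at day 90. MMP13 was the gene in 6 of those 1100 cells with 1 gene and was held by all 18 cells with 4. The number of genes and the presence of MMP13 were thus not separated. The day 7 grafts showed no such steady rise in MMP3. In the untreated graft MMP3 stood at 44.5 CPM with 0 genes, 26.2 with 1, 55.2 with 2 and 149 with 3. In the inhibitor graft it stood at 141 CPM with 1 gene, 499 with 2, 298 with 3 and 1082 in the 5 cells with 4.

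By levels, the marker genes differed between libraries within the set. MMP13 stood at 71.8 CPM in the marker-positive cells of the untreated graft at day 7, at 60.8 in the inhibitor graft and at 1288 in the untreated graft at day 90, against 6.56, 2.71 and 13.8 in the other fibroblasts. A single cell held 27.8% of the MMP13 UMIs of the first of these, and 52.1 CPM remained without it. IL11 was at 269, 897 and 520 CPM against 16.8, 51.9 and 11.6. PRSS35 differed less between the sets, with 534, 556 and 508 CPM against 156, 250 and 381. TUBB3 was at 322, 282 and 70.3 CPM against 16.1, 15.9 and 1.75.

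Free RNA from broken cells can put UMIs into cells that do not make a gene. In leukocyte-gated cells (PTPRC at 2 or more UMIs, collagens under 2%), 1.02%, 1.32% and 1.65% held an IL11 UMI and 0.473%, 0.460% and 1.65% an MMP13 UMI in the same 3 libraries, at median depths of 5458, 3022 and 7943 UMIs. In endothelial-gated cells, at median depths of 8185, 7161.5 and 9342 UMIs, 0.799%, 1.03% and 1.47% held a PRSS35 UMI, but 6.75%, 2.89% and 3.60% an IL11 UMI and 6.83%, 6.70% and 5.48% a TUBB3 UMI. For IL11 the other fibroblasts held 5.09%, 7.91% and 9.39%, so in the untreated graft at day 7 their share was below that of the endothelial-gated cells. Among marker-positive cells the shares with at least 1 UMI were 58.8%, 75.7% and 79.7% for IL11, at median depths of 19602.5, 20209 and 27823 UMIs. After thinning to 3000 UMIs, IL11 was found in 30.8%, 53.7% and 44.7% of the marker-positive and in 1.52%, 2.89% and 2.13% of the other fibroblasts. IL11 is a gene of the rule, and the cells were chosen on all their UMIs before thinning. The rule thus set the direction of this contrast, and nothing is read from it.

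Levels over all barcodes of a library use neither the gate nor the rule. MMP13 and IL11 are genes of the rule, however, and MMP3 was chosen as a marker with earlier results of these data known. These levels thus give no separate support to the shares of marker-positive cells. MMP13 gave 16.6, 24.6 and 127 CPM over all barcodes of these 3 libraries. It had 4 UMIs each in the inhibitor graft of day 90 (0.0794 CPM) and in unwounded skin (0.216 CPM). Untreated over inhibitor graft, the MMP13 ratio of day 90 was 1600 (interval 625 to 5874). IL11 gave 27.8 and 107 CPM at day 7 and 60.6 and 2.30 at day 90, the untreated graft first, and 2.33 in unwounded skin. MMP3 gave 99.1 and 141 CPM on day 7, 180 and 1.83 on day 90, and 0.811 in the unwounded library. The order of the grafts was the same for these 3 genes, with the inhibitor graft above the untreated graft at day 7 (1.49-fold, 3.86-fold and 1.42-fold) and below it at day 90. For MMP13 at day 7, 75.1% of the UMIs of the untreated and 77.7% of those of the inhibitor graft lay outside the fibroblast gate. Fewer cells of a kind and less RNA per cell cannot be told apart in these sums.

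Which cells held the MMP13 RNA changed between the days. The marker-positive fibroblasts held 17.5% and 20.4% of a library's MMP13 UMIs in the untreated and inhibitor grafts at day 7, and 88.8% in the untreated graft at day 90. Of the 929 and 1525 MMP13 UMIs outside the fibroblast gate at day 7, 890 and 1246 lay in cells with 2 or more UMIs of KRT5 or KRT14, keratins of the basal epidermis. In the untreated graft at day 90 such cells held 5 of 670. IL11 was held to 39.0%, 69.1% and 75.04% by the marker-positive fibroblasts of these 3 libraries.

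Gene levels of the marker-positive cells were set against the other fibroblasts of the same library, and a gene was called higher or lower at 1.5-fold among genes with 50 CPM or more in either set. The rule chose the cells in this very contrast, so nothing is read from the counts. In the untreated graft at day 7, 26.4% of 2585 genes were called (311 higher, 12% of genes tested, and 372 lower, 14.4%). In the inhibitor graft at day 7 it was 23.1% of 2538 (269 higher, 10.6%, and 318 lower, 12.5%), and in the untreated graft at day 90 20.5% of 2375 (265 higher, 11.2%, and 222 lower, 9.35%). The median log2 ratio over all genes tested was 0.11, 0.12 and 0.11. Once each ratio was set against that median, 221, 169 and 204 genes were higher and 440, 389 and 271 lower. All 3 libraries called 59 genes higher and 101 lower, out of 2064 tested in each.

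The genes that were highest in the marker-positive cells of all 3 libraries included matrix-acting enzymes and a protease inhibitor. TGM2, a transglutaminase that cross-links proteins, stood at 64.5 against 8.84 CPM in the untreated graft at day 7, 164 against 22.2 in the inhibitor graft, and 335 against 4.76 at day 90, log2 ratios of 2.87, 2.88 and 6.14. SERPINE2 stood at 68.1 against 15.1, 534 against 88.8 and 211 against 46.3 CPM. MMP3 stood at 83.4 against 37.9, 422 against 89.7 and 1739 against 31.4 CPM. The MMP3 contrast widened at day 90, with log2 ratios of 1.14, 2.23 and 5.79. In the untreated graft at day 7 a single cell held 47.8% of the MMP3 UMIs of the set, and 43.7 CPM remained without it. MMP11 (stromelysin 3) was higher in each library, at 75.5 against 34.6, 74.4 against 39.8 and 79.2 against 39.0 CPM. CTSC, the lysosomal protease cathepsin C, stood at 289 against 152, 352 against 181 and 438 against 59.5 CPM.

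Another group of these genes belongs to the contractile apparatus. CNN1, the actin-binding protein calponin 1, stood at 136 against 16.5, 98.8 against 12.9 and 84.3 against 40.7 CPM, log2 ratios of 3.05, 2.93 and 1.05. MYL9, a myosin light chain, stood at 197 against 47.1, 187 against 67.9 and 179 against 90.9 CPM. TPM1, TPM2 and CNN2 were higher in each library too. In thinned cells CNN1 was found in 26.7%, 15.3% and 17.5% of the marker-positive and 2.65%, 2.48% and 7.09% of the other fibroblasts, so the contrast was there at equal depth.

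Of the remaining genes, TNN (a tenascin of the matrix) was at 217 against 40.3, 98.2 against 34.4 and 130 against 68.1 CPM. COL15A1, a collagen of the basement membrane zone, was at 203 against 61.2, 111 against 52.7 and 114 against 35.3. ODAPH, a gene known from tooth enamel, and DSC2, a cadherin of desmosomes, were higher in each library with smallest log2 ratios of 1.78 and 1.39. PCLAF, a partner of the replication clamp, stood at 88.1 against 26.2, 69.4 against 25.6 and 51.1 against 24.3 CPM. NT5DC2, CCDC34, ECM1 and B4GALT4 completed the 20 genes.

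HPS5, whose product takes part in making lysosome-related organelles, stood at 363 against 157, 3292 against 1203 and 4521 against 259 CPM. A single cell held 71.6% of its UMIs in the untreated graft at day 7, and without that cell the log2 ratio there was -0.60. The neighbouring genes on one side in the RefSeq gene table of the pig assembly Sscrofa11.1 are SAA1P, SAA2 and SAA4, of the serum amyloid A family, and SAA2 had 0 UMIs in the set. Whether reads of a neighbour were counted for HPS5 was not tested.

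**Figure D3:**
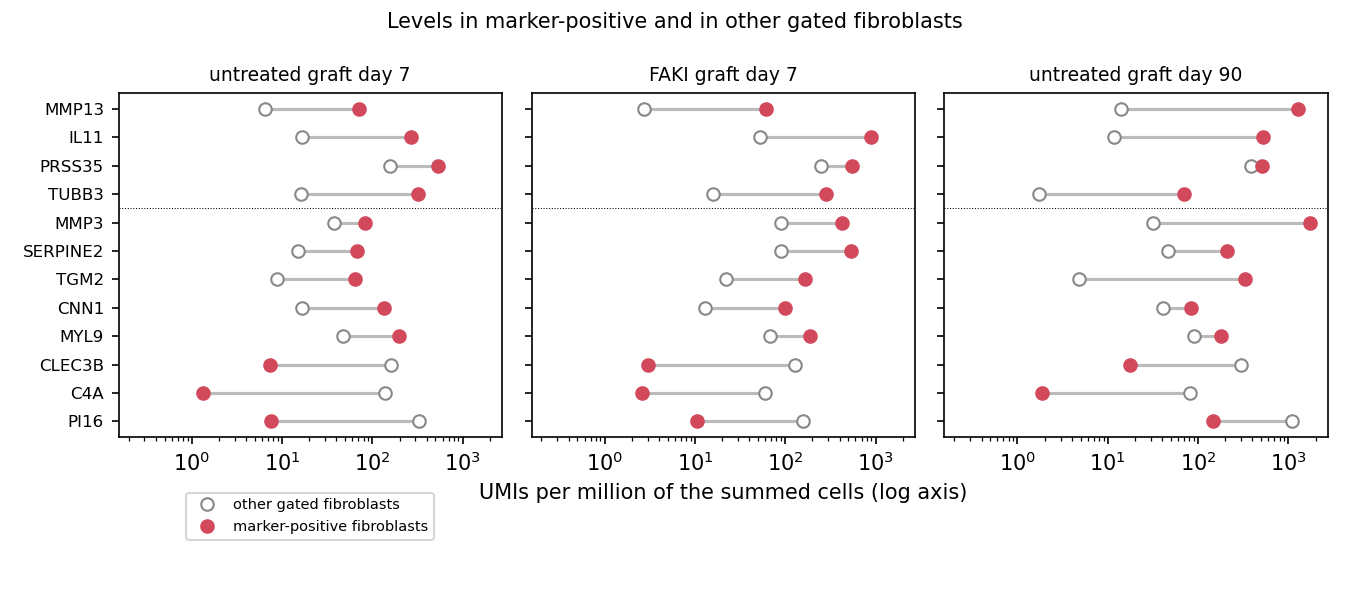
Levels (CPM on a log axis) of the 4 marker genes, above the dotted line, and of 8 further genes in marker-positive (filled) and other (open) fibroblasts, with a panel for each of the 3 libraries. MMP3, SERPINE2, TGM2, CNN1 and MYL9 lie higher in the marker-positive cells of each library, and CLEC3B, C4A and PI16 lower.

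The genes that were lowest in the marker-positive cells of all 3 libraries included 6 from the list of unwounded dermis. C4A, a complement component, stood at 1.33 against 137, 2.58 against 60.4 and 1.87 against 80.9 CPM. CLEC3B (tetranectin) stood at 7.31 against 159, 3.03 against 127 and 17.8 against 299 CPM. PI16, a marker of adventitial fibroblasts, stood at 7.65 against 327, 10.5 against 155 and 147 against 1087 CPM. PI16 in the marker-positive cells was thus 19.3-fold higher at day 90 than at day 7 in the untreated graft (12.8 to 30.5). At day 90, 82 of 246 cells had a PI16 UMI, the 10 highest held 70.6% of the UMIs, and the level was 219 CPM in cells with 2 of the marker genes, 16.5 with 3 and 7.96 with 4. SFRP4, a Wnt antagonist, was at 26.3 against 383, 15.8 against 205 and 100 against 740 CPM. MGP, an inhibitor of calcification, was at 329 against 2569, 368 against 3368 and 1741 against 8870 CPM. FBLN1, IGFBP5, APOD, CPXM2, NFIX, FAM180A, IFI6, COL14A1, GAS6 and SELENOP completed the 15 genes.

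Lists of genes with a common role were counted the same way, beside shares over all genes of 12%, 10.6% and 11.2% higher and 14.4%, 12.5% and 9.35% lower. Of the contractile genes tested, 12 of 13 were higher in the untreated graft at day 7, 10 of 12 in the inhibitor graft and 6 of 12 at day 90, and none was lower, with median log2 ratios of 1.31, 0.96 and 0.59 beside the 0.11, 0.12 and 0.11 over all genes. ACTA2, the actin of myofibroblasts, stood at 763 against 229 and 484 against 257 CPM at day 7, and at 744 against 517 at day 90, under 1.5-fold. Of genes of unwounded dermis, 13 of 17, 12 of 16 and 13 of 16 were lower, with medians of -2.89, -2.25 and -2.01. IGFBP6 at day 7 and PDGFRA at day 90 in the untreated grafts were the exceptions that were higher.

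Interferon response genes were lower wherever they were tested, 4 of 4, 12 of 12 and 3 of 3, with medians of -1.45, -1.58 and -1.48. When the rule was applied to thinned cells, which left 31 marker-positive cells in the untreated graft at day 7, the median there was 0.10, and with the same cells thinned it was -1.36. IFI6 stood at 226 against 1198, 477 against 2889 and 71.3 against 288 CPM. Immediate early genes, which tissue digestion also raises, were lower in 12 of 13, 8 of 13 and 5 of 12, and EGR1 stood at 103 against 392, 295 against 693 and 525 against 812 CPM. Small leucine-rich proteoglycans, which bind collagen fibrils, were lower in 4 of 8, 3 of 9 and 6 of 10, and none was higher. Tendon and cartilage genes were lower in 2 of 4, 2 of 4 and 7 of 8, and their median in the untreated graft at day 7 was 0.46 with the rule applied to thinned cells and -0.42 with the same cells thinned.

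The proteases and their inhibitors were mixed. Among metalloproteinases other than MMP13, 3 of 6 were higher in each graft at day 7 (MMP3, MMP9 and MMP11) and 3 of 5 at day 90 (MMP3, MMP11 and MMP14), with medians of 0.47, 0.30 and 0.62. MMP2 was lower in the untreated graft at day 7, at 1018 against 1838 CPM, and at 3203 against 2619 at day 90. MMP9, a gelatinase, stood at 181.8 against 10.3 and 173 against 22.9 CPM at day 7 and at 7.03 against 0.331 at day 90, below the level for testing. Of 9 protease inhibitors, TIMP1, SERPINE2 and PI15 were higher at day 7 in both grafts, and SERPINE2 and PI15 at day 90. SERPING1 and TFPI2 were lower in each of the 3 libraries.

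Collagens did not move as a group, with 4 higher and 3 lower of 15, 1 and 3 of 13, and 2 and 4 of 16. POSTN, which encodes the matricellular protein periostin, was lower in each library at 1807 against 8688, 695 against 6056 and 2353 against 5739 CPM. Integrins and focal adhesion genes were higher in 8 of 13, 3 of 10 and 2 of 12, the last of these near the share over all genes, with ITGA5, a subunit of the fibronectin receptor, at 331 against 113, 185 against 99.4 and 270 against 89.0 CPM. Glycolysis and hypoxia genes were higher in 6 of 12, 4 of 11 and 4 of 11, among them GAPDH and LDHA in each library. Cell cycle genes were higher in 4 of 5 and 3 of 4 at day 7 and in 0 of 3 at day 90. Of 19 genes of the unfolded protein response, 2, 1 and 0 were higher and none lower.

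Inflammatory genes stood on different sides at day 7 and day 90. Among cytokines and chemokines, 8 of 12 and 9 of 15 were lower in the untreated and inhibitor grafts at day 7 and 1 was higher in each (CCL8, of which a single cell held 98.9% and 81.0% of the UMIs), with medians of -1.16 and -1.17. At day 90 in the untreated graft 5 of 9 were higher (TNFAIP3, CXCL8, CXCL14, CSF3 and NFKBIA) and none lower, with a median of 0.82. With a minimum of 10 CPM in place of 50 CPM that median was -0.13. CXCL14 stood at 1789 against 2328, 2256 against 2652 and 2565 against 727 CPM. IL6 stood at 112 against 277, 273 against 409 and 202 against 84.6 CPM. An IL6 UMI was found in 43.2%, 67.3% and 58.1% of the marker-positive and in 41.4%, 47.6% and 18.8% of the other fibroblasts. PTGS2, the inducible enzyme of prostaglandin synthesis, stood at 53.5 against 305, 111 against 414 and 205 against 95.5 CPM. The gp130 gene IL6ST, through which IL11 signals, was lower in the marker-positive cells of each library, at 52.2 against 186, 40.0 against 119 and 43.6 against 75.7 CPM.

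**Figure D4:**
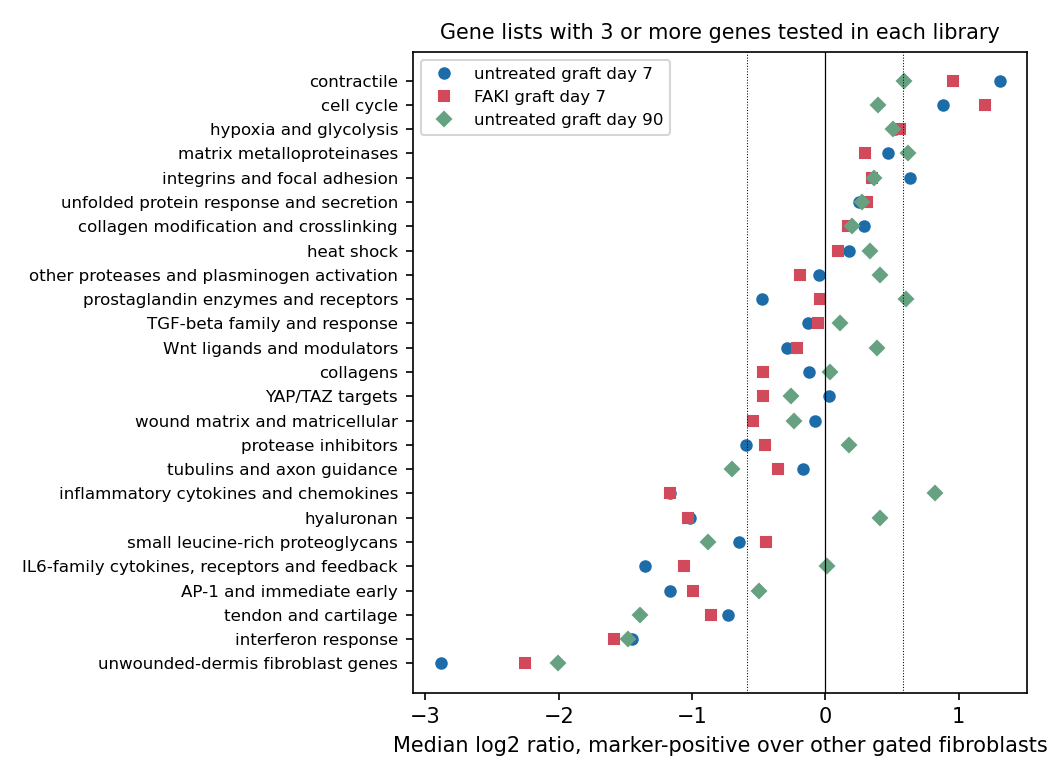
Median log2 ratio of marker-positive over other fibroblasts for each gene list with at least 3 genes tested in each of the 3 libraries, with 1 point per library and dotted lines at 1.5-fold. Contractile genes lie above 0 in each (1.31, 0.96 and 0.59) and genes of unwounded dermis below -2, while inflammatory genes lie below 0 at day 7 and at 0.82 at day 90.

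Within the marker-positive set, cells with MMP13 differed from those without it. MMP3 stood at 850 CPM in cells with 2 or more MMP13 UMIs against 25.4 CPM in the rest of the set in the untreated graft at day 7, at 1976 against 274 in the inhibitor graft, and at 3892 against 293 in the untreated graft at day 90. TGM2 stood at 378 against 40.8, 443 against 137 and 678 against 104 CPM. ACTA2 lay the other way, at 170 against 808, 33.2 against 527 and 390 against 982 CPM. CNN1 was at 0 against 147, 10.5 against 107 and 49.7 against 107 CPM. CTSC was at 671 against 260, 471 against 341 and 792 against 200 CPM. The groups held 11 and 137, 31 and 278, and 116 and 130 cells, and the first of these rests on few cells, with 1 cell holding 47.8% of the MMP3 UMIs of the set. MMP13 is a gene of the rule, and cells without it must carry a pair of the other marker genes, so the rule has a part in this contrast.

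A split by IL11 gave a further pattern. SERPINE2 stood at 86.8 CPM in cells with 2 or more IL11 UMIs against 53.7 CPM in those without in the untreated graft at day 7, at 695 against 119 in the inhibitor graft, and at 250 against 115 at day 90. TGM2 stood at 116 against 24.8, 218 against 24.96 and 447 against 60.8 CPM. POSTN stood at 1031 against 2409, 322 against 1658 and 1712 against 3920 CPM. A split by TUBB3 separated MMP13 the other way, at 33.0 CPM in cells with TUBB3 against 287 without at day 7 in the untreated graft, 21.6 against 172 in the inhibitor graft and 592 against 1652 at day 90. ACTA2 stood at 826 against 417 and 597 against 163 CPM in cells with and without TUBB3 at day 7, and at 645 against 796 at day 90. The rule takes any pair of the 4 genes, so a cell that lacks 1 of them carries the others more often.

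Few marker-positive cells met the definition of another fibroblast state by its own 2 genes. GREM1 with F13A1 was found in 6.76% and 8.41% of the marker-positive against 29.0% and 24.9% of the other fibroblasts in the untreated and inhibitor grafts at day 7, and in 3.66% against 3.09% in the untreated graft at day 90. THBS4 with TNMD, genes of tendon, was found in 2.03% against 24.5% in the untreated graft at day 90. PI16 with CD34 was found in no marker-positive cell of either graft at day 7, against 3.55% and 0.688% of the other fibroblasts, and in 0.813% against 5.16% in the untreated graft at day 90.

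The inhibitor comparison at day 7 set the 309 marker-positive cells of the treated graft against the 148 of the untreated graft. At 1.5-fold, 143 of 2481 genes were higher under the inhibitor (5.76%) and 138 lower (5.56%), 11.3% in all, with a median log2 ratio of 0.06. In the other fibroblasts of the same libraries 6.02% of 2457 genes were called, 79 higher (3.22%) and 69 lower (2.81%). Interferon response genes were higher in both sets, 5 of 5 with a median of 1.83 in the marker-positive and 12 of 12 with a median of 1.45 in the other fibroblasts. ISG15, a ubiquitin-like interferon product, stood at 55.5 CPM in the untreated and 198 in the inhibitor graft in the marker-positive cells. CXCL10, a chemokine induced by interferon, stood at 11.0 and 241 CPM, or at 2.37 and 166 without the cell with the most UMIs in each graft. In the other fibroblasts the log2 ratio of CXCL10 was 5.99, above the 4.45 of the marker-positive cells.

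Among the 12 highest genes 3 were on the list of neutrophil markers, S100A12, S100A8 and CSF3. Of these, CSF3 acts on neutrophils and does not by itself mark them. S100A12, a calcium-binding protein best known from neutrophils, stood at 1.66 CPM in the untreated and 96.6 CPM in the inhibitor graft, with UMIs in 5 of 148 and 92 of 309 cells. CSF3, the growth factor of neutrophils, stood at 1.99 and 85.8 CPM, or 52.7 without the cell that held 38.9% of its UMIs. AREG, a ligand of the EGF receptor, stood at 5.98 and 153 CPM, and SPP1 (osteopontin) at 9.31 and 136. The other fibroblasts had log2 ratios of 0.98 for S100A12, 0.99 for AREG and 0.60 for SPP1, against 5.86, 4.68 and 3.87 in the marker-positive cells. WNT5A, a Wnt ligand, stood at 58.2 and 312 CPM (5.37-fold, interval 4.60 to 6.30), ARG1 (arginase 1) at 10.3 and 202, and CFD (complement factor D) at 65.5 and 466. SERPINE2, MMP3 and HPS5 were also among the 12 highest, with log2 ratios of 2.97, 2.34 and 3.18 beside 2.56, 1.25 and 2.94 in the other fibroblasts. ARG1 gave 4.29 beside 2.99, CSF3 5.43 beside 2.44, CFD 2.83 beside 0.62 and WNT5A 2.43 beside 0.52.

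Several of these genes are on lists of markers of other cells. The 6 measured genes of the neutrophil list summed to 7.98 CPM in the marker-positive cells of the untreated graft and 256 CPM in those of the inhibitor graft at day 7. In the other fibroblasts they summed to 48.3 and 122. These sums include CSF3, at 1.99 and 85.8 CPM in the marker-positive cells and 10.7 and 58.0 in the other fibroblasts. CSF3R and PADI4 were at 0 in the marker-positive cells of the untreated graft, whereas all 6 had UMIs in those of the inhibitor graft. The 10 measured keratinocyte markers summed to 555 and 262 CPM against 414 and 203. Most of the 555 CPM came from KRT5 (243) and KRT14 (222), and a single cell held most of the UMIs of each. The order of these sums thus depends on that cell. The part of other cells' RNA in these differences was not tested.

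Of the 12 lowest genes 10 are reported, among them an integrin chain and a collagen. CCN2, a target of YAP and TGF-beta, stood at 252 CPM in the untreated and 87.9 CPM in the inhibitor graft, a log2 ratio of -1.52 beside -0.83 in the other fibroblasts. ITGB3, the beta chain of a vitronectin receptor, stood at 74.1 and 20.2 CPM. COL8A1 stood at 86.8 and 25.6 CPM, and in the other fibroblasts its log2 ratio was -0.20. The remaining 7 lower genes were ENPP1, TPPP3, PCSK1N, S100A2, DES, CCL19 and KRT14. For S100A2 and KRT14, 1 cell of the untreated graft held 91.7% and 71.0% of the UMIs. Without the top cell of each set the S100A2 log2 ratio turned to 1.28, and with likely doublets removed that of KRT14 turned to 1.59. TPPP3 (-2.34) and PCSK1N (-2.12) turned to 0.19 and 0.73 when the rule was applied to thinned cells, and gave -1.91 each with the same cells thinned.

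The list counts below stand beside 5.76% higher and 5.56% lower under the inhibitor over all genes tested in the marker-positive cells. By list, 7 of 17 collagens were lower and none higher under the inhibitor, with a median of -0.56. Of 20 genes of wound matrix 7 were lower, FN1, POSTN, VCAN, CCN1, CCN2, EMILIN1 and TNN. YAP/TAZ targets were lower in 5 of 10 (median -0.43), and integrins and focal adhesion genes in 3 of 13 (ITGA5, ITGA11 and ITGB3, median -0.43). Immediate early genes were higher in 7 of 11 (median 0.81), inflammatory genes in 5 of 10 (median 0.60), and of the IL6 family IL6, SOCS3 and the rule gene IL11. PTGS2 stood at 53.5 and 111 CPM. Of 13 contractile genes ACTA2, FLNA and DES were lower and none higher, and the contractile median was -0.08. The mix of marker combinations differed between these libraries. Among cells with IL11 and PRSS35 but without MMP13 at 2 UMIs (55 in the untreated, 177 in the inhibitor graft), a set chosen after seeing the data, 190 genes were higher and 255 lower.

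**Figure D5:**
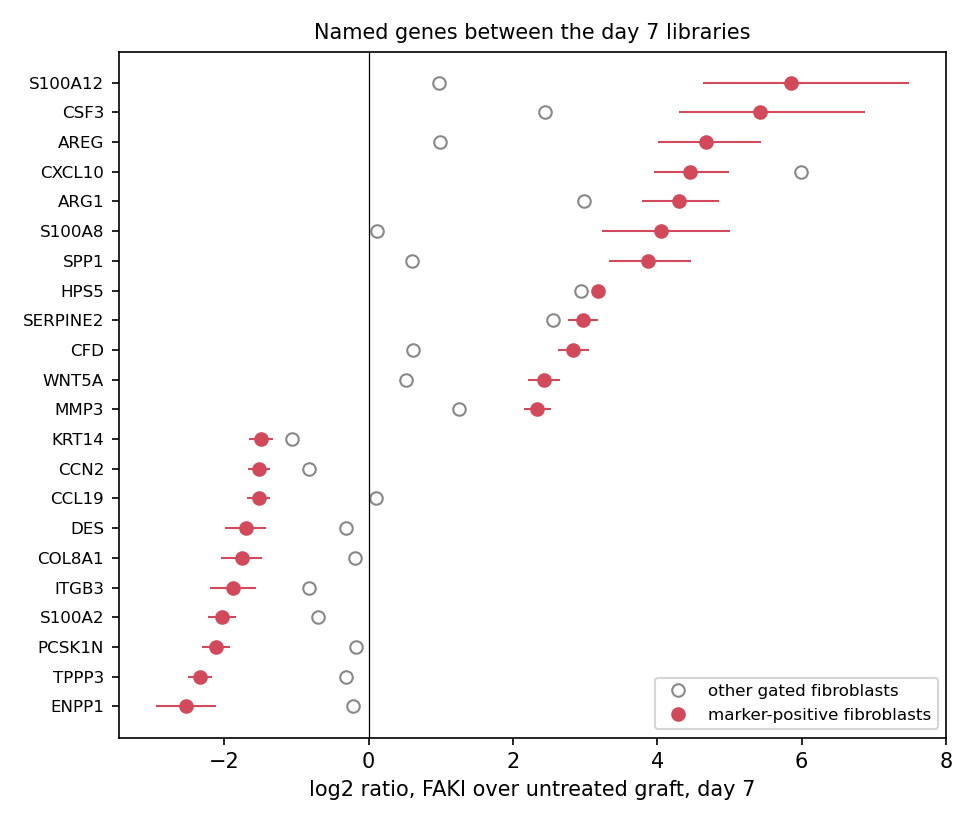
Log2 ratio of the inhibitor over the untreated graft at day 7 for the 22 named genes, in marker-positive fibroblasts with exact 95% intervals (counting error only) and in the other fibroblasts of the same libraries. S100A12, AREG and SPP1 lie at 5.86, 4.68 and 3.87 in the marker-positive cells and at 0.98, 0.99 and 0.60 in the other fibroblasts.

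The time comparison set the 246 marker-positive cells of the untreated graft at day 90 against the same 148 cells at day 7, so it shares its day 7 library with the inhibitor comparison. At day 90, 286 of 2535 genes were higher (11.3%) and 494 lower (19.5%), 30.8% in all, with a median log2 ratio of -0.19. Set against that median, 417 were higher and 252 lower. In the other fibroblasts 30.3% of 2482 genes were called, 236 higher (9.51%) and 516 lower (20.8%), with a median of -0.21.

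Several metalloproteinases were higher in the marker-positive cells at day 90. MMP3 stood at 83.4 CPM at day 7 and 1739 at day 90, a log2 ratio of 4.38, and at 37.9 and 31.4 CPM in the other fibroblasts (-0.27). MMP2 stood at 1018 and 3203 CPM, a log2 ratio of 1.65 beside 0.51, and MMP14, the membrane-bound activator of MMP2, at 223 and 414 CPM, 0.89 beside 0.08. The rule gene MMP13 had a log2 ratio of 4.17. MMP9 went the other way, at 181.8 CPM at day 7 and 7.03 at day 90. On the list of metalloproteinases 4 of 7 were higher and 1 lower, beside 11.3% and 19.5% over all genes. The rule gene MMP13 is among the 4 and counts in the median, so neither gives separate support. The list's median was 0.89, and it was -0.045 with the rule applied to thinned cells and 0.79 with the same cells thinned. The mix of marker combinations differed between these sets too. MMP13 reached 2 UMIs in 7.43% of the marker-positive cells at day 7 and in 47.2% at day 90. Cells with MMP13 held more MMP3 RNA on both days. The part of this mix in the MMP3 ratio was not tested.

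IGFBP2, which binds insulin-like growth factors, stood at 38.6 CPM at day 7 and 1099 at day 90 in the marker-positive cells, with a log2 ratio of 4.83 beside 0.47 in the other fibroblasts. S100A12, MLANA, RAMP1, CSF3, PI16, LCN2, PKIB, HPS5 and COL11A1 were the other highest genes. The melanocyte markers summed to 12.96 CPM at day 7 and 82.1 at day 90 with MLANA at the top (65.6), while PMEL, TYRP1, DCT and SOX10 were at 0 at day 7 and TYR and TYRP1 at day 90. The genes of the neutrophil list summed to 7.98 CPM at day 7 and 174 at day 90 (S100A12 at 96.6 and CSF3 at 50.5), against 48.3 and 6.23 in the other fibroblasts. CSF3R was at 0 on both days and PADI4 at 0 at day 7. The part of other cells' RNA was not tested.

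Genes that were lower at day 90 included TIMP1, the inhibitor of metalloproteinases, at 5540 CPM at day 7 and 1188 at day 90. TIMP1 was lower in the other fibroblasts as well, at 2036 and 906 CPM. Its median per cell was 11.6 and 6.88 UMIs per 10000 in the marker-positive cells and 11.3 and 5.35 in the other fibroblasts. The keratins KRT14 and KRT5 stood at 222 and 243 CPM at day 7 and at 0.431 and 1.005 at day 90, and a single day 7 cell held 71.0% and 78.0% of their UMIs. PDGFA, PTGIS, S100A2, S100A4, TPPP3, CCL4, CCL8, MT1X, DES and MMP9 were the others, of which CCL8, S100A2, MT1X and CCL4 rested on 1 cell of day 7 for 98.9%, 91.7%, 84.3% and 76.1% of their UMIs. With the rule applied to thinned cells the log2 ratio of S100A4 turned from -2.58 to 1.45 and that of MT1X from -3.10 to 0.35, and with the same cells thinned they were -2.06 and -2.09.

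Over all genes tested in the marker-positive cells, 11.3% were higher at day 90 and 19.5% lower, and in the other fibroblasts 9.51% and 20.8%. Beside these shares, immediate early genes were higher at day 90 in 10 of 11 (median 1.59). Tendon and cartilage genes were higher in 4 of 5 (median 3.07) and small leucine-rich proteoglycans in 4 of 7 (median 0.86). Cell cycle genes were lower in 3 of 5 (median -0.72, but 0.20 in cells with IL11 and PRSS35 and without MMP13) and interferon response genes in 2 of 3 (median -1.60). Of 13 contractile genes CNN1, DES and VCL were lower, which is near the share of 19.5% over all genes, and none was higher. In the other fibroblasts ACTA2, TAGLN and MYL9 were higher. Inflammatory genes in the other fibroblasts were lower in 10 of 11 (median -1.97), against 3 of 10 lower and 3 higher in the marker-positive cells (median 0.24).

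The 7 marker-positive cells of the inhibitor graft at day 90 were too few for a profile, and their summed values are given as they stand. They held 267482 UMIs with 0 UMIs of MMP13, MMP3, TGM2 and HPS5, while IL11 was at 41.1 and PRSS35 at 594 CPM. SERPINE2 stood at 7.48 CPM, under the 17.2 CPM of the other fibroblasts of that graft. PI16 stood at 493 CPM and MGP at 4931 CPM, above their levels in the marker-positive cells of the 3 other grafts. Both were under the 1550 and 6455 CPM of the other fibroblasts of the same graft. These cells thus met the rule with PRSS35 and a few UMIs of IL11 (at most 3 in a cell) or TUBB3, without the MMP3 and TGM2 levels of the other grafts.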

How the data were processed

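Per the submitters' processing notes the matrices were made with Cell Ranger and handled with Seurat 3.1.1. The deposited values are whole-number counts of UMIs per gene and barcode, without normalization by the authors. A software version of 3.1.0 stands in the headers of the matrices with no further explanation. The genome build is not given in the sources used here. Of 20286 genes, 15344 had a symbol, 670 of them from a RefSeq table of Sscrofa11.1, and the other 4942 were counted but not named. MMP1, MMP10, JUN, TIMP2, CTSK and IL1B had no symbol here and are not reported.

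The gate and the marker rule of the report were applied to all 5 matrices. The UMIs of all cells in a set were added up and scaled to CPM. Shares have Clopper-Pearson intervals, ratios exact conditional binomial intervals, all at 95%. The 4 marker genes and the 6 genes of the gate were left out of the counts between sets of 1 library and kept in those between libraries. Named for a contrast within a library were the 20 genes with the largest smallest log2 ratio over the 3 libraries with at least 20 marker-positive cells (50 CPM in those cells of each) and the 15 with the smallest largest one (50 CPM in the other fibroblasts of each). Between libraries the rule took the 12 highest and 12 lowest genes by the interval bound nearest to 1. Members of the gene lists could be named as examples, and mitochondrially encoded and ribosomal protein genes were not named. Of the genes these rules chose, 2 are not reported here. The cells, the gene lists and the markers were chosen with earlier results of these data known.

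Scrublet ran in Scanpy 1.11.5 per library. Its own threshold marked 0, 0, 83, 3 and 3 barcodes, so the top-scoring cells were taken at 0.8% per 1000 cells (531, 705, 260, 117 and 20). No cell was removed from the main values, and removal was an alternative. The scripts used SciPy 1.17.1, NumPy 2.4.6 and pandas 2.3.3 under Python 3.11.15, with plots by Matplotlib 3.10.9, and the ratio and interval code was tested on simulated counts.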

Additional observations from a re-analysis of the deposited data

Results flagged for a closer look

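The inhibitor to untreated ratio of the share of marker-positive cells lay on opposite sides of 1 at the 2 time points, at 1.97 at day 7 and 0.0767 at day 90. With 1 library per group this difference was not tested.

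For 5 genes the contrast between marker-positive and other fibroblasts had 1 sign in both grafts at day 7 and the opposite sign in the untreated graft at day 90. The log2 ratio of IL6 was -1.30 and -0.59 at day 7, the untreated graft first, and 1.26 at day 90. PTGS2 gave -2.51, -1.90 and 1.10, and B3GNT2, a glycosyltransferase, gave -1.09, -0.72 and 1.18. FIBIN went the other way with 1.11, 1.28 and -1.29, as did PRSS23, a secreted serine protease, with 1.51, 1.26 and -0.61. The median of the inflammatory list, over the genes tested in each library, followed the first pattern with -1.16, -1.17 and 0.82. The day 90 median was -0.13 at a minimum of 10 CPM and -0.37 at a minimum of 10 UMIs, so its sign depended on the genes admitted. The other fibroblasts serve as the base of these ratios, and none of these differences was tested.

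Signal of the marker genes also lay outside the fibroblast gate. There, 44 cells of the untreated and 78 of the inhibitor graft at day 7 and 22 of the untreated graft at day 90 met the rule on the 4 marker genes, with 31, 49 and 13 of them above 2 UMIs of RGS5, a gene of pericytes. Neither the day 90 inhibitor graft nor unwounded skin held such a cell. MMP13 UMIs outside the gate in cells with KRT5 or KRT14 numbered 890 in the untreated and 1246 in the treated graft at day 7, in contrast to 3 in unwounded skin.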

How the results depend on the processing

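Other settings, 5 of them chosen after seeing the data (without shared barcodes for shares and for ratios, only IL11 and PRSS35 cells without MMP13, without the top cell of a gene, and thinning of the cells chosen on all UMIs), kept 80 of 130 values of shares, ratios and counts within their limits and moved 50. Shares after thinning to 3000 UMIs were 2.58%, 6.82%, 3.51% and 0 in the grafts (untreated then inhibitor at day 7, then at day 90), with 3 of the 4 genes 3.03%, 8.36%, 3.94% and 0, and without TUBB3 in the rule 4.69% and 14.1% at day 7. The day 7 ratio became 2.64, 2.76 and 2.999 under these 3 settings, and the ratio of untreated day 90 to day 7 became 1.36 with thinning and 2.14 without TUBB3. Counts of higher and lower genes moved with the genes admitted. At a minimum of 10 CPM they were 849 and 1091 (untreated, day 7), 647 and 956 (inhibitor, day 7) and 732 and 718 (untreated, day 90) between the sets of a library, 410 and 823 for inhibitor over untreated, and 871 and 1189 for day 90 over day 7. At a minimum of 10 UMIs they were 1691 and 2495, 1441 and 2438, 1607 and 2374, 1007 and 1881, and 1859 and 2031 in that order. Applying the rule to thinned cells, which left 31, 87 and 73 of the 148, 309 and 246 cells, gave 925 and 594, 426 higher, 710 and 366, 683 and 903, and 684 and 962. Thinning the same cells moved 3 counts, to 473 higher in the untreated graft at day 7 and to 262 higher and 301 lower under the inhibitor. Centring on the median gene gave 169 higher for the inhibitor graft and 252 lower for day 90 over day 7, and IL11 with PRSS35 cells alone gave 255 lower under the inhibitor.

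Of 1303 values of named genes 1276 stayed the same, 16 fell under 1.5-fold and 11 reversed, and thinning the same cells reversed 0 genes and 0 list medians. Under the inhibitor at day 7, the rule on thinned cells reversed TPPP3 (0.19), PCSK1N (0.73) and S100A2 (1.68). S100A2 was also 1.83 with likely doublets removed, 2.46 in IL11 and PRSS35 cells alone and 1.28 without its top cell, and KRT14 was 1.59 with doublets removed. For day 90 over day 7, that rule gave 0.35 for MT1X and 1.45 for S100A4, and IL11 and PRSS35 cells alone gave 0.67 for MT1X. HPS5 in the untreated graft at day 7 was -0.60 without its top cell. Among 333 list medians 6 reversed: at day 7 in the untreated graft with the rule on thinned cells, interferon response (0.10) and tendon and cartilage (0.46); inflammatory genes at day 90 at 10 CPM (-0.13) and 10 UMIs (-0.37); for day 90 over day 7, metalloproteinases with the rule on thinned cells (-0.045) and cell cycle in IL11 and PRSS35 cells (0.20). Apart from single top cells, the admitted genes and the cells left by the rule on thinned cells, the cause was not tested. No paired analysis was possible because each group is 1 library. The number of cells limits the 7 cells of the inhibitor graft at day 90 (median 33743 UMIs) and the 11 cells with MMP13 in the untreated graft at day 7.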
